A study of Mus musculus with 16 samples.

Results

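The V(D)J recombination genes *Rag1*, *Rag2* and *Dntt* are 3 of the 50686 gene models counted in each of 16 RNA-seq libraries. They were taken by name, and were chosen from an earlier analysis of these libraries in which the genotype values of *Rag1* and *Rag2* were known, so their genotype differences are given as a description and without a test. The libraries came from BCR-ABL1p185+ cell lines, each derived individually by transforming C57BL/6N mouse bone marrow with a retrovirus that carries the BCR-ABL1 oncogene. There were 4 *Cdk8* fl/fl lines, labelled wildtype, with floxed *Cdk8* alleles, and 4 *Cdk8* Δ/Δ *Vav-Cre* lines, labelled Cdk8 KO, in which Cre driven by the *Vav* promoter had deleted *Cdk8* in hematopoietic cells. They are called fl/fl and Δ/Δ lines here. Each line was sequenced after 48 h with DMSO and after 48 h with 1 µM Senexin B, an inhibitor of the mediator kinases CDK8 and CDK19, which gave 4 groups of 4 libraries. The replicate number in the labels was read as the number of the line within its genotype. Ages of the donor mice are not in the labels of these libraries.

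RAG1 and RAG2 form the recombinase that cuts antigen receptor genes next to V, D and J segments, and the end joining machinery closes the breaks. Terminal deoxynucleotidyl transferase, the product of *Dntt*, adds nucleotides without a template at those junctions. In the bone marrow all 3 genes are active in B-cell progenitors, where E proteins, EBF1, PAX5, FOXO1 and Ikaros are among the factors known to control them, and the neighbouring *Rag1* and *Rag2* are transcribed toward each other and share distant enhancers.

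*Rag1* (ENSMUSG00000061311.6) lies on the minus strand of chromosome 2 from 101638282 to 101649501 (GRCm38), in 2 exon blocks of which the second, 6528 bases, carries most of the model. *Rag2* (ENSMUSG00000032864.4) lies on the plus strand of the same chromosome from 101624718 to 101632529, in 3 exon blocks. The gap between the models is 5753 bases. *Dntt* (ENSMUSG00000025014.12) lies on the plus strand of chromosome 19 from 41029275 to 41059523, in 12 exon blocks. The promoters are shown because *Rag1* and *Rag2* varied together over the lines and *Dntt* did not. Any link between the motifs in them and the levels was not tested. Each is the RefSeq sequence (GRCm38.p6) of the 250 bases before and the 50 bases from the start site, on the coding strand. Capitals mark matches, on either strand, to the E-box CANNTG bound by E proteins, to TGTGGT (RUNX), TGTTTAC (FOXO), TGGGAA (the Ikaros core) or CCAAT. The windows are chr2:101649483-101649782 (minus strand), chr2:101624462-101624761 (plus strand) and chr19:41029025-41029324 (plus strand).
Rag1: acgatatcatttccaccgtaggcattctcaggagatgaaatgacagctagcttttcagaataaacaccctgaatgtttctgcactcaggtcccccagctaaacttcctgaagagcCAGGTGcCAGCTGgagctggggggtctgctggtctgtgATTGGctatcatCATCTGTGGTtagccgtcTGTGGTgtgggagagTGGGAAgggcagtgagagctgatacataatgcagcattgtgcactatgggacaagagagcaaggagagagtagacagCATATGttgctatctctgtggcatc
Rag2: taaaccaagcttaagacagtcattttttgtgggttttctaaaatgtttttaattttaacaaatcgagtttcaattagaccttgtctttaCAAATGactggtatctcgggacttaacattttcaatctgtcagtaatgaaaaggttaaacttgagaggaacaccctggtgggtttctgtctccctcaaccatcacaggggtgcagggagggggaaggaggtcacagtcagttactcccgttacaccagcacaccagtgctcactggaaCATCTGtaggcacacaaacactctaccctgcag
Dntt: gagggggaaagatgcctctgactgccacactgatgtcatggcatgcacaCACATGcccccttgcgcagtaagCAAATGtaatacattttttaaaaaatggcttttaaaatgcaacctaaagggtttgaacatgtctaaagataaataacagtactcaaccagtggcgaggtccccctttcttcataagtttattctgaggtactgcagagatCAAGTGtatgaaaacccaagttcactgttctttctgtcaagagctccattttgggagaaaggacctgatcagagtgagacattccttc

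The *Rag1* window held 4 E-boxes, 2 RUNX matches, 1 Ikaros core and 1 CCAAT box, and 1 of the E-boxes (CATCTG) overlapped a RUNX match by 2 bases. The *Rag2* window held 2 E-boxes and the *Dntt* window 3, and neither held any of the other motifs. Of 32851 promoters of the same length, 72.3% held an E-box, 16.8% the RUNX letters, 25.6% the Ikaros core, 37.4% CCAAT and 3.65% the FOXO letters, which were in none of the 3 windows.

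Between 13145876 and 18349425 reads were counted per library, and levels are given as CPM (counts scaled to an equal library total) after TMM normalization. The targeted gene was read first. *Cdk8* RNA was 61.7 to 68.6 CPM in the 4 *Cdk8* fl/fl DMSO libraries and 35.3 to 52.0 CPM in the 4 Δ/Δ DMSO libraries, groups that did not overlap, and 55.1 to 89.3 against 41.1 to 61.6 CPM with Senexin B, where they did. The labels do not give the deleted stretch, and reads outside it would still be counted toward the gene. The source of the *Cdk8* RNA left in the Δ/Δ lines was not tested. The lines had the RNA of B-cell progenitors: the 13 B-lineage genes were all at 1 CPM or more in every library and summed to between 6816 and 15580 CPM. The 7 T-lineage genes summed to at most 0.577 CPM and the 4 erythroid genes to at most 1.55 CPM, and *Cd3g* and *Elane* were at 0 in every library. The 6 myeloid genes summed to between 0.503 and 25.04 CPM, and *Lyz2* was the only one of them at 1 CPM or more in any library. In bulk RNA, fewer cells that express a gene and less RNA per cell cannot be told apart.

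*Rag1*, the catalytic subunit of the recombinase, was low in all fl/fl lines with DMSO and higher in each Δ/Δ line. It was at 2.60, 2.77, 3.86 and 1.61 CPM in *Cdk8* fl/fl lines 1 to 4. In Δ/Δ lines 1 to 4 it was at 17.8, 9.26, 77.8 and 18.9 CPM. The groups did not overlap, and line 3 stood far above the other Δ/Δ lines. The means were 2.71 ± 0.921 and 30.9 ± 31.5 CPM (SD, n = 4 lines each), a ratio of 11.4, while the ratio of the medians was 6.85. *Rag2*, the second subunit, gave the same picture at lower counts. In the *Cdk8* fl/fl lines it was at 0.519, 2.20, 2.52 and 0.140 CPM, the last from 2 reads with a 95% counting interval of 0.242 to 7.22 reads. In the Δ/Δ lines it was at 8.04, 11.0, 39.4 and 7.65 CPM. Line 3 was again the highest and no line of one genotype reached the range of the other. The means were 1.34 ± 1.19 and 16.5 ± 15.3 CPM, and the medians differed 7.001-fold.

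*Dntt* did not divide by genotype. It was at 0.924, 1.38, 10.6 and 37.6 CPM in *Cdk8* fl/fl DMSO lines 1 to 4. In the Δ/Δ DMSO lines it was at 282, 1.81, 2.28 and 3.53 CPM. A single Δ/Δ line, line 1, held 4532 *Dntt* reads, against 29, 36 and 48 in the other 3, which lay within the range of the fl/fl lines. The mean was therefore 5.74-fold higher in the Δ/Δ group (72.5 ± 139.9 against 12.6 ± 17.3 CPM) while the median was lower, at 2.91 against 5.97 CPM. The plot of levels by line shows the 3 genes side by side.

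**Figure D1:**
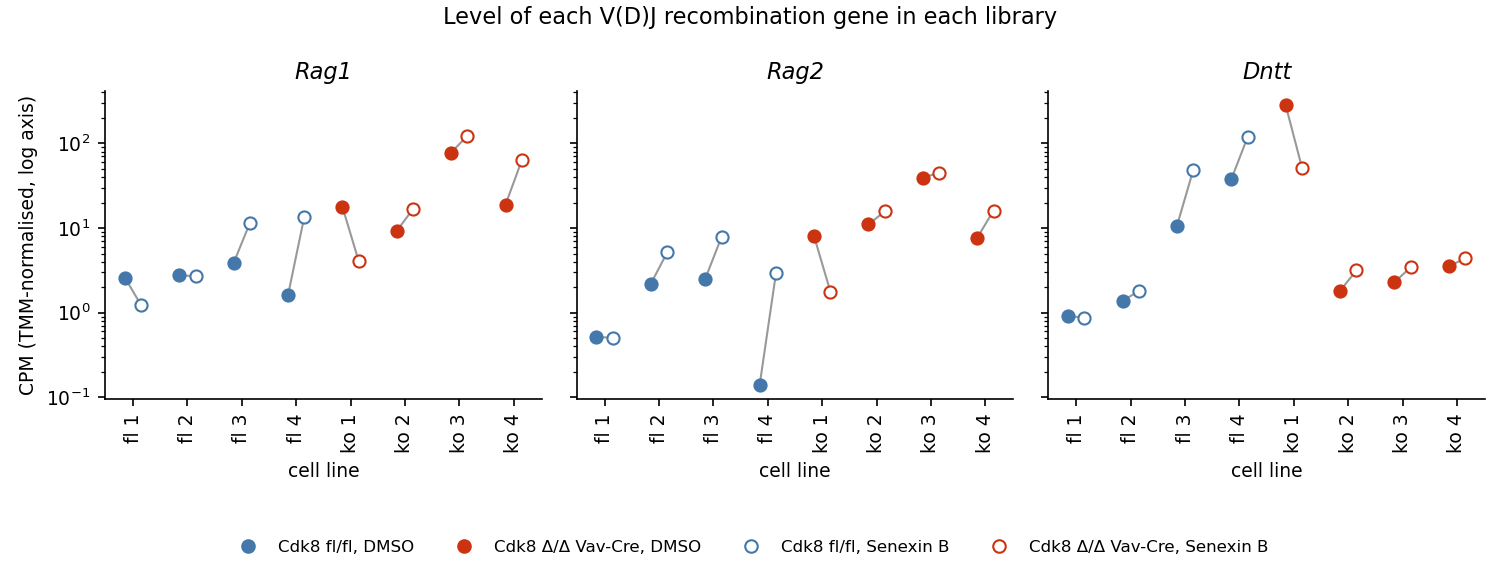
CPM (log axis) of *Rag1*, *Rag2* and *Dntt* in each of the 8 lines, labelled fl 1 to 4 (*Cdk8* fl/fl) and ko 1 to 4 (Δ/Δ), with DMSO as filled and Senexin B as open circles joined by a line. In DMSO, *Rag1* lies between 1.61 and 3.86 CPM in the fl/fl lines and between 9.26 and 77.8 CPM in the Δ/Δ lines, while *Dntt* is highest in ko 1 (282 CPM), fl 4 and fl 3.

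For scale, 195 of 13174 genes tested in DMSO (1.48%) were higher in every Δ/Δ line than in every *Cdk8* fl/fl line, and *Rag1* and *Rag2* were 2 of them. Since that contrast was known when the genes were chosen, nothing is read from their membership. The fitted log2 fold changes were 3.51 (SE 0.70) for *Rag1*, 3.604 (SE 0.93) for *Rag2* and 2.52 (SE 1.86) for *Dntt*. Of the 13174 genes, 0.00759% (1 gene) passed an adjusted p under 0.05 with a fold change over 2 in edgeR's quasi-likelihood test, and 701 had an unadjusted p under 0.05. DESeq2 called 32 of 27542 genes at the same limits. No call is given for *Rag1*, *Rag2* or *Dntt*, which were chosen with this contrast known. Without line 3 in the Δ/Δ group the fitted log2 fold change was 2.495 for *Rag1* and 2.71 for *Rag2*, and without line 1 that for *Dntt* turned to -2.31.

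With Senexin B the separation by genotype was incomplete. *Rag1* was at 1.22, 2.70, 11.5 and 13.6 CPM in *Cdk8* fl/fl lines 1 to 4 and at 4.07, 16.8, 123.5 and 63.4 CPM in the Δ/Δ lines. *Rag2* was at 0.503, 5.15, 7.86 and 2.92 CPM in the fl/fl lines and at 1.78, 15.7, 44.9 and 16.1 CPM in the Δ/Δ lines. For both genes 3 of the 4 Δ/Δ lines lay above all fl/fl lines, and line 1 fell inside the fl/fl range. *Dntt* was at 0.863, 1.80, 48.3 and 118.5 CPM in the fl/fl lines and at 51.7, 3.16, 3.46 and 4.38 CPM in the Δ/Δ lines, so no Δ/Δ line exceeded all fl/fl lines. Among 13010 genes, 0.546% were higher in every Δ/Δ line than in every fl/fl line here. In edgeR 0% passed the adjusted limits and 202 had an unadjusted p under 0.05, and DESeq2 called 10 of 27919 genes. The medians differed 5.65-fold for *Rag1* and 3.94-fold for *Rag2*, with the Δ/Δ lines higher. The 2 genotype comparisons use the same 8 lines and are not independent of each other.

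Compared per kilobase of gene model, *Rag1* and *Rag2* were at similar levels. In the *Cdk8* fl/fl DMSO lines the means were 0.410 ± 0.139 CPM per kb for *Rag1* and 0.393 ± 0.347 CPM per kb for *Rag2*. In the Δ/Δ DMSO lines they were 4.68 ± 4.77 and 4.83 ± 4.48 CPM per kb. The ratio of *Rag1* to *Rag2* per kb ran from 0.271 in fl/fl line 2 with Senexin B to 5.96 in fl/fl line 4 with DMSO, which rests on 2 *Rag2* reads. In the Δ/Δ lines it stayed between 0.436 and 2.04. The *Dntt* to *Rag1* ratio per kb was far wider, from 0.0869 in Δ/Δ line 3 with Senexin B to 72.6 in fl/fl line 4 with DMSO. *Dntt* exceeded *Rag1* per kb in both libraries of all 4 fl/fl lines and of Δ/Δ line 1, and was below it in both libraries of Δ/Δ lines 2, 3 and 4.

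**Figure D2:**
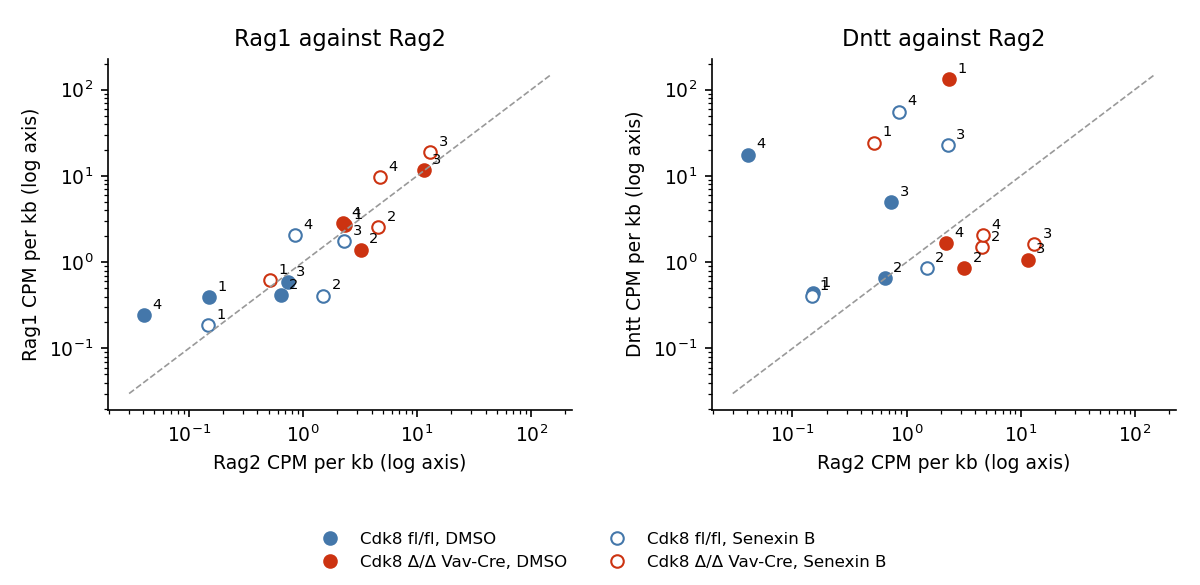
*Rag1* (left) and *Dntt* (right) against *Rag2* in CPM per kb of gene model, both axes logarithmic, 1 point per library with the number of its line. The dashed line marks equal levels. *Rag1* follows *Rag2* (Pearson r = 0.91 over 16 libraries of log2 values) and *Dntt* does not (r = -0.10).

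The coupling of *Rag1* and *Rag2* was also seen over the 8 line means, with a Pearson r of 0.91 and a Spearman rho of 0.93. The value describes 8 lines of 2 genotypes that differ in both genes, so it holds the genotype difference within it. For *Rag1* and *Dntt* the same measures were -0.06 and 0.31, and for *Rag2* and *Dntt* -0.23 and 0.10. *Traf6*, a signaling adaptor whose model begins 28928 bases from that of *Rag1*, was at 81.7 to 190 CPM in every library and its group means were between 118 and 146 CPM. The remaining genes within 100 kb of the RAG pair were at or near 0: *Prr5l* reached at most 2.09 CPM and *Gm20693* 0.0606 CPM. *B230118H07Rik* spans *Rag1* and *Rag2*, shares 80 exon bases (1.21%) with *Rag1* and 208 exon bases (6.07%) with *Rag2*, and reached at most 0.909 CPM. Reads in those shared bases could not be given to one gene, because the counting used no multiple assignment. It also used no strand, which could have separated only the bases shared with *Rag2*, as *B230118H07Rik* lies on the strand of *Rag1*. Beside *Dntt*, *Blnk*, the adaptor of the pre-B-cell receptor, was at 474 to 1389 CPM, *Opalin* was at 0 in every library and *Tll2* reached 0.0699 CPM.

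With Senexin B the 3 genes were higher in some lines and lower in others. For *Rag1*, the ratio of Senexin B to DMSO was 0.471 (95% counting interval 0.253 to 0.839) in *Cdk8* fl/fl line 1 and 0.975 (0.602 to 1.57) in line 2. It was 2.98 (2.27 to 3.95) in line 3 and 8.46 (5.46 to 13.7) in line 4. In the Δ/Δ lines it was 0.229 (0.174 to 0.297), 1.82 (1.48 to 2.24), 1.59 (1.48 to 1.71) and 3.35 (2.92 to 3.87) in lines 1 to 4. Thus line 1 of each genotype had less *Rag1* with Senexin B, and 5 of 8 lines had more. These intervals cover counting error only, with 1 library per line and treatment.

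For *Rag2*, the ratio was 0.969 (0.307 to 2.92) in fl/fl line 1, from 9 and 7 reads, and 2.34 (1.52 to 3.65) and 3.12 (2.23 to 4.43) in lines 2 and 3. In fl/fl line 4 it was 20.9 (5.40 to 178.7), which rests on 2 reads with DMSO and 38 with Senexin B. In Δ/Δ lines 1 to 4 it was 0.221 (0.144 to 0.330), 1.43 (1.17 to 1.75), 1.14 (1.02 to 1.27) and 2.10 (1.66 to 2.67). For *Dntt*, it was 4.58 (3.92 to 5.37) and 3.15 (2.85 to 3.48) in fl/fl lines 3 and 4, and 0.183 (0.170 to 0.197) in Δ/Δ line 1, the line with the most *Dntt*. In the 5 lines with little *Dntt*, the ratio was between 0.935 and 1.74. The line with the most *Dntt* in DMSO thus had 5.47-fold less with Senexin B, and the next 2 in that order had more.

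**Figure D3:**
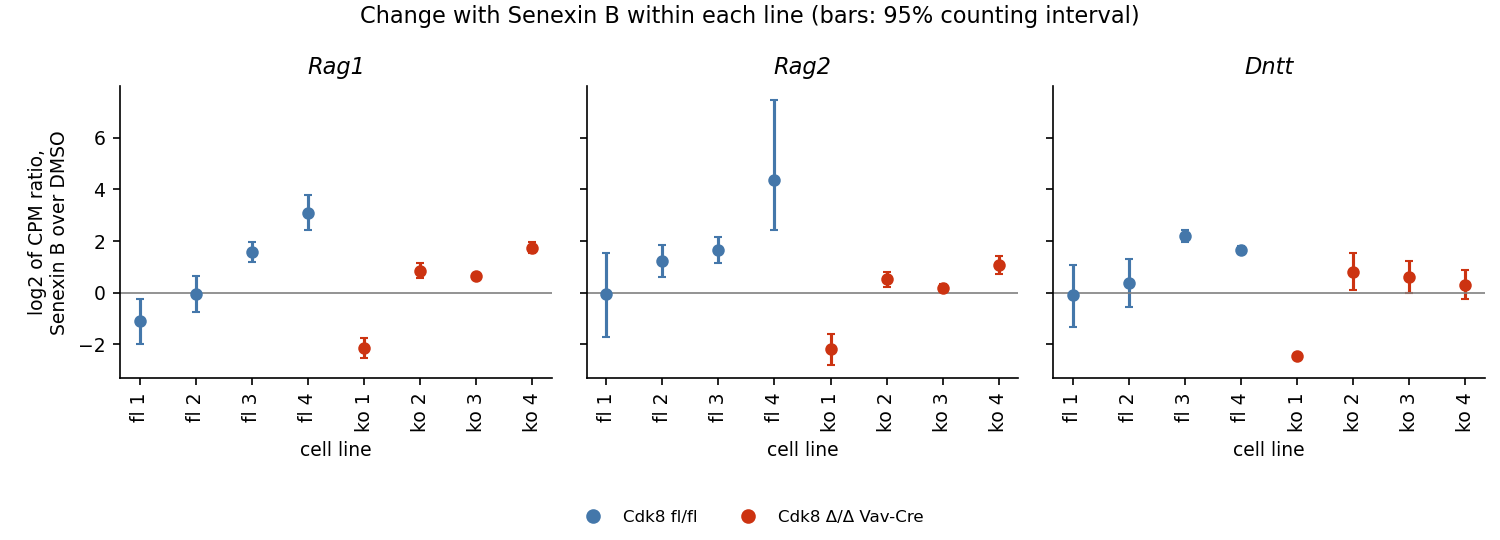
Log2 ratio of CPM with Senexin B over CPM with DMSO within each of 8 lines for *Rag1*, *Rag2* and *Dntt*, with bars for the 95% interval of counting error. The Δ/Δ line 1 (ko 1) is the lowest in each panel, with ratios of 0.229, 0.221 and 0.183.

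Over the 8 lines the change with Senexin B was not distinguishable from the spread between lines. The mean within-line difference of log2(CPM + 0.5) was 0.57 ± 1.51 (SD, n = 8 lines) for *Rag1* (exact two-sided sign-flip permutation test, p = 0.328), 0.59 ± 1.27 for *Rag2* (p = 0.234, exact) and 0.38 ± 1.36 for *Dntt* (p = 0.438, exact). The smallest p this test allows over 8 lines is 0.00781, and 3 such tests were run. *Rag1* was higher in 5 lines and *Rag2* and *Dntt* in 6 of 8. When each line was left out in turn, only leaving out Δ/Δ line 1 gave a p under 0.05, for *Rag2* (mean 0.95) and for *Dntt* (mean 0.78), both at p = 0.0312 in the exact test. The difference in change between genotypes was -0.53 for *Rag1*, -1.28 for *Rag2* and -1.25 for *Dntt* on the log2 scale (Δ/Δ minus fl/fl), with exact permutation p values of 0.629, 0.2 and 0.257, where 0.0286 is the smallest possible with 4 lines against 4.

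In the fits over all genes, Senexin B gave *Rag1* a log2 fold change of 1.43 (SE 0.71), *Rag2* 1.61 (SE 0.94) and *Dntt* 1.76 (SE 1.56) in the *Cdk8* fl/fl lines, each at an adjusted p of 1 in edgeR's quasi-likelihood test. In the Δ/Δ lines the values were 0.75 (SE 1.01), 0.25 (SE 0.89) and -2.21 (SE 1.83), also at an adjusted p of 1. These fits ignore that both libraries of a line belong together. In edgeR 0% of the 12989 and 0% of the 13285 genes passed, and 493 and 243 had an unadjusted p under 0.05. DESeq2 called 19 of 27318 and 0 of 27858 genes. With the line as a replicate block, 45 genes (0.346%) passed in the fl/fl lines and 7 (0.0527%) in the Δ/Δ lines. In the blocked fl/fl fit *Rag2* was at 1.63 (SE 0.49, adjusted p = 0.289), *Dntt* at 1.38 (SE 0.35, adjusted p = 0.213) and *Rag1* at 0.98 (SE 0.63, adjusted p = 0.671). *Rag2* and *Dntt* were at unadjusted p of 0.00952 and 0.00425 there, in a fit in which 10.3% of genes had an unadjusted p under 0.05. In the blocked Δ/Δ fit, where that share was also 10.3%, the adjusted p were 0.821, 0.979 and 0.798 for *Rag1*, *Rag2* and *Dntt*. For the difference in Senexin B change between genotypes, 0% of 14164 genes passed in edgeR (67 at an unadjusted p under 0.05, and 0 called by DESeq2), with adjusted p of 1 for each of the 3. With the line as a block, edgeR's quasi-likelihood test put *Dntt* at -1.83 (SE 0.78, unadjusted p = 0.0406). It put *Rag2* at -1.59 (SE 0.76, unadjusted p = 0.0624) and *Rag1* at -0.63 (SE 0.95, unadjusted p = 0.522). The adjusted p was 0.991 for each, 0 genes passed and 459 of 14164 had an unadjusted p under 0.05.

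Within a line, the 3 genes mostly differed from DMSO in the same direction. *Rag2* and *Dntt* had the same sign in 8 of 8 lines and *Rag1* had that sign in 7 of 8, fl/fl line 2 being the exception, where *Rag1* was at -0.03 on the log2 scale. In fl/fl line 1 *Rag2* was at -0.02 and *Dntt* at -0.06, and both counting intervals included equal levels. The *Dntt* interval also did so in fl/fl line 2 (0.687 to 2.46) and in Δ/Δ lines 3 (0.980 to 2.36) and 4 (0.840 to 1.85). The signs in those lines are therefore uncertain. Over the 8 within-line changes the Pearson r was 0.91 for *Rag1* with *Rag2*, 0.85 for *Rag1* with *Dntt* and 0.91 for *Rag2* with *Dntt*, and the Spearman rho was 0.81, 0.71 and 0.79. The 3 genes share libraries and their scaling, and line 1 of the Δ/Δ lines weighs on each value. Without the 2 lines farthest from the median they were 0.64, 0.57 and 0.66.

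Genes that act with or upstream of the recombinase were compared as a list of 52 genes, and all 52 had enough counts to be tested. In DMSO none of the 52 passed the limits between genotypes in edgeR or DESeq2. In edgeR 3 were higher and 0 lower in the Δ/Δ lines at an unadjusted p under 0.05, against 5.32% of all genes in either direction. None of the 52 had groups that did not overlap. Of all 13174 genes, 195 were higher and 219 lower in every Δ/Δ line than in every fl/fl line. Their median log2 fold change was 0.04, beside 0.00 over all genes, and their range was -1.42 to 0.88. With Senexin B, 1 of the 52 was at an unadjusted p under 0.05 between genotypes, against 1.55% of all genes.

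Among the end joining genes, *Xrcc6*, which encodes Ku70, was higher in the Δ/Δ lines by 0.79 (SE 0.26, unadjusted p = 0.0156, adjusted p = 0.897) in DMSO and by 1.03 (SE 0.44, adjusted p = 1) with Senexin B. It was at 113, 88.8, 151 and 219 CPM in Δ/Δ DMSO lines 1 to 4 and at 75.7 to 95.1 CPM in the fl/fl DMSO lines, so the groups overlapped through Δ/Δ line 2. *Paxx* was at -0.28 in DMSO and *Lig4*, the ligase of the pathway, at -0.39 with Senexin B. Of the break response genes, *Trp53bp1*, which protects broken ends, was at 0.39 (SE 0.14, adjusted p = 0.897) and *Mre11a* at -0.10 in DMSO, and *Mdc1* was at 0.18 and *H2afx* at -0.41 with Senexin B. The RAG cofactors, which bend DNA at the recombination signal, were at 0.08 (*Hmgb1*) and -0.06 (*Hmgb2*) in DMSO, and *Hmgb1* was at -0.28 with Senexin B. Of the genes for turnover of the RAG proteins, *Cdk2* was at -0.23 and *Ccna2* at 0.14 in DMSO, and *Ccna2* was at -0.27 and *Dcaf1* at 0.06 with Senexin B. None of these passed.

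**Figure D4:**
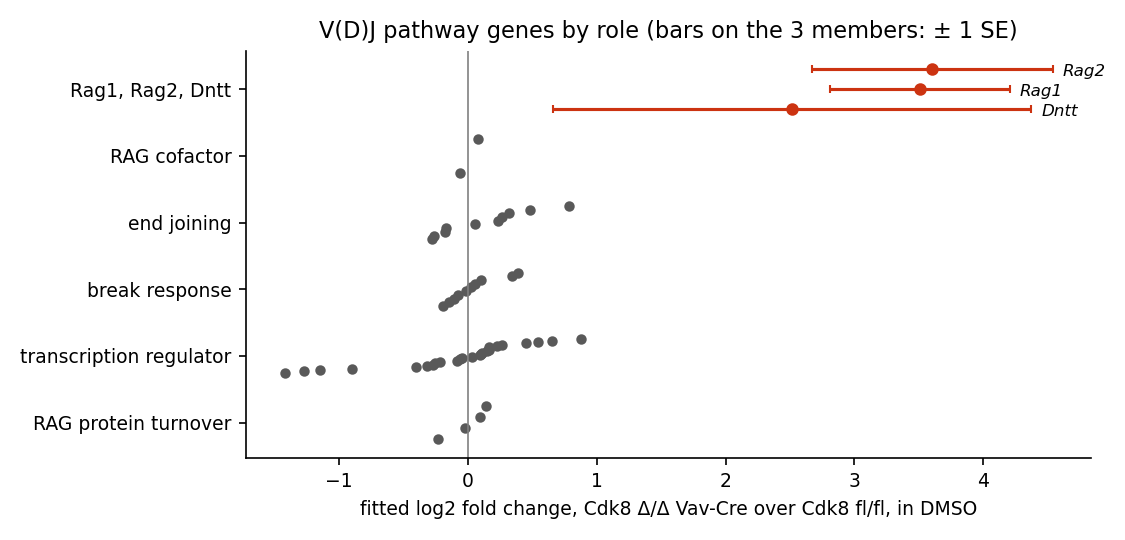
Fitted log2 fold change between genotypes in DMSO for each of the 52 listed genes, 1 point per gene by role, and for *Rag1*, *Rag2* and *Dntt* with bars of 1 SE. The listed genes lie between -1.42 and 0.88, and the 3 members at 3.51, 3.604 and 2.52.

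Of the transcription regulators, *Tcf12*, an E protein gene, was at -0.31 (SE 0.14, adjusted p = 0.897) in DMSO and *Gfi1b* at 0.66 (SE 0.37, adjusted p = 0.908). With Senexin B *Irf8* was at -0.36 and *Ets1* at 0.57. The lowest fitted values in DMSO were those of *Id2* (-1.42, SE 0.68), *Satb1* (-1.27, SE 0.98) and *Spib* (-1.15, SE 0.56). The highest was that of *Id3* (0.88, SE 0.71). Their adjusted p were between 0.897 and 0.913. The known activators of the RAG genes were given whatever their values. *Foxo1* was at 458 ± 96.4 CPM in the fl/fl and 536 ± 239 CPM in the Δ/Δ DMSO lines (SD, n = 4), and its fitted difference was 0.23 (SE 0.31). For *Tcf3*, which encodes E2A, the value was -0.06 (SE 0.23), for *Ebf1* 0.26 (SE 0.17), for *Pax5* 0.10 (SE 0.22) and for *Ikzf1*, which encodes Ikaros, 0.16 (SE 0.27), with adjusted p between 0.908 and 0.983 for the 5 genes. With Senexin B the same 5 genes were between -0.18 and 0.20. The tests do not show that these levels are equal.

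Within Senexin B, 0 of the 52 listed genes passed in either genotype in edgeR, with or without the replicate block, or in DESeq2. In the blocked fit 7 were higher and 2 lower at an unadjusted p under 0.05 in the fl/fl lines, and 4 were higher and 4 lower in the Δ/Δ lines. Over all genes the share at that limit, in either direction, was 10.3% in both blocked fits. By line, the 26 regulators had a median change of -0.21 in Δ/Δ line 1, with 16 of 26 lower. Over all genes that line had a median change of -0.016, with 7337 of 14164 lower. The regulator medians were 0.05 to 0.44 in the other 7 lines, with 12 of 26 lower in fl/fl line 1. Some regulators were lower in both fl/fl line 1 and Δ/Δ line 1, such as *Gfi1b* (-2.002 and -2.256) and *Ebf1* (-0.802 and -0.887). Others were not, such as *Pax5* (0.281 and -0.193) and *Ikzf1* (0.432 and 0.072). The 13 B-lineage genes had a median change of -0.50 in Δ/Δ line 1, with 11 of 13 lower. Their median was -0.17 in fl/fl line 1, with 9 of 13 lower, and -0.29 in Δ/Δ line 2, with 12 of 13 lower. It was -0.003 in fl/fl line 3 and above 0 in the other 4 lines. In Δ/Δ line 2, all 3 of *Rag1*, *Rag2* and *Dntt* were higher. The part of these lists in the changes of *Rag1*, *Rag2* and *Dntt* was not tested.

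The genes whose line means followed each member most closely were found among 12534 genes with a mean of 1 CPM or more, by Pearson r over the 8 lines. For *Rag1* these were *Col27a1* (r = 0.99), *Trim30d* (0.97), *Gmip* (0.95), *Inpp5k* (0.95) and *Epas1* (0.93), and *Rag2* came at rank 12. *Col27a1*, a fibrillar collagen gene, was at 6.35 to 12.3 CPM in the fl/fl and at 23.5 to 76.8 CPM in the Δ/Δ DMSO lines, with the most in line 3. For *Rag2* they were *Zfp597* (0.97), *Alkbh4* (0.95), *Igfbp4* (0.94), *Zfp773* (0.94) and *Fbxl5* (0.94), and *Rag1* came at rank 19. The lowest values were those of *Tceanc* (-0.95), *Dnajc1* (-0.94) and *1700084E18Rik* (-0.93) for *Rag1*, and of *Slc25a25* (-0.96), *Stmn1* (-0.95) and *Gpr137b* (-0.95) for *Rag2*. These values describe 8 lines of both genotypes whose libraries share their scaling, so they hold the genotype difference within them. The genes named are the extremes among 12534, and an r near 1 or -1 follows in part from that choice.

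For *Dntt* the list began with *Eif2s3y* (r = 0.96), a gene of the Y chromosome, followed by *Lyz2* (0.95), which encodes lysozyme, *Tmem140* (0.94), *Etv6* (0.93) and *Slc45a4* (0.93). *Eif2s3y* was at 33.5, 41.9 and 52.8 CPM in the DMSO libraries of fl/fl lines 3 and 4 and Δ/Δ line 1, and at 0 to 1.91 CPM in the other 5. Those 3 lines were also the 3 with the most *Dntt*, at 10.6, 37.6 and 282 CPM. *Lyz2* was at 4.29, 7.62 and 24.6 CPM in them and at 0.252 to 2.13 CPM elsewhere. *Cd22*, an inhibitory coreceptor of B cells, had one of the lowest values (-0.95), with 59.6, 23.1 and 20.3 CPM in the same 3 lines and 139 to 226 CPM in the others, beside *9530085L11Rik* (-0.98) and *Ffar1* (-0.96). The part of these differences between lines in the *Dntt* levels was not tested. The genes named here were picked as the extremes of r among 12534 genes over 8 lines. Their likeness or contrast to *Dntt* follows from that choice and is not a separate result.

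**Figure D5:**
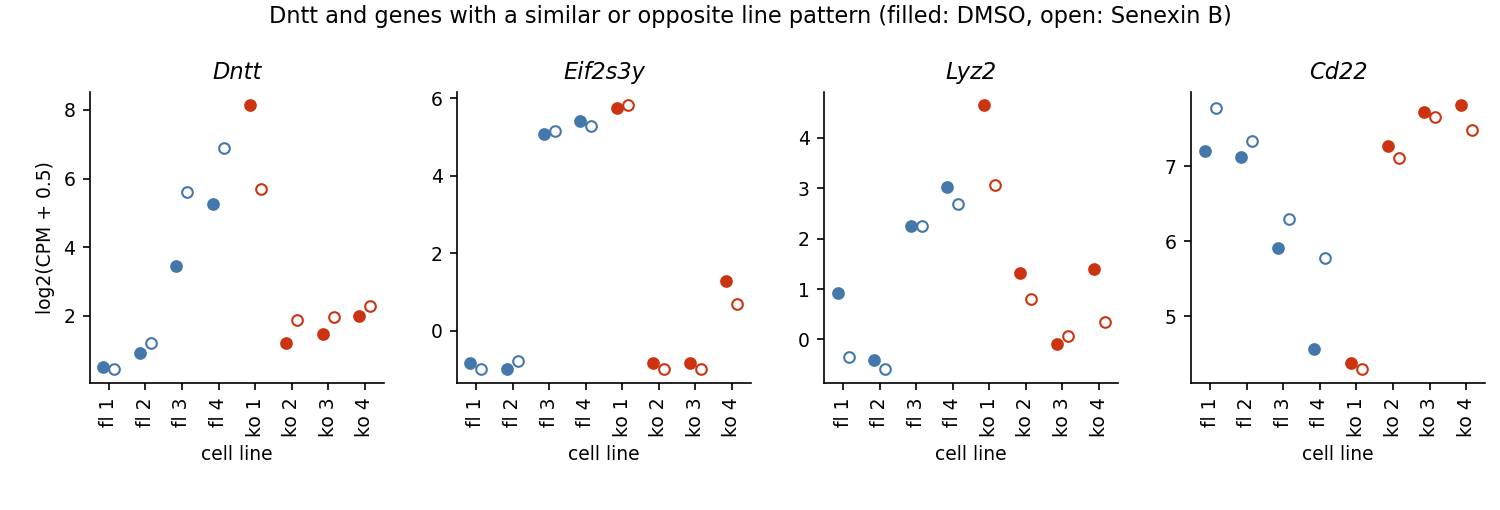
Log2(CPM + 0.5) of *Dntt*, *Eif2s3y*, *Lyz2* and *Cd22* in each of the 8 lines, with DMSO filled and Senexin B open, fl/fl lines in blue and Δ/Δ lines in red. The 3 lines with the most *Dntt* (fl 3, fl 4 and ko 1) also have the most *Eif2s3y* and *Lyz2* and the least *Cd22*. The other genes were picked for their high or low correlation with *Dntt* over these lines.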

How the data were processed

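Raw counts per gene were used as deposited. Per the labels and file headers, the authors processed single-end SENSE mRNA-Seq reads with Trimmomatic and STAR and counted exons with featureCounts 1.5.1 on a GENCODE annotation of GRCm38, without a strand option. In 1 of 16 files the header names another annotation folder, but the gene models are identical. Symbols were found for 50376 identifiers. The tests were run in edgeR 4.0.16 under R 4.3.3 (TMM, filterByExpr, robust quasi-likelihood, Benjamini-Hochberg), each on the libraries compared, with calls at adjusted p below 0.05 and more than 2-fold change. Alternatives were DESeq2 1.42.0, RLE size factors, no filter, other pseudocounts, a replicate block, summed libraries and leaving out each library or line. Single values used exact permutation tests (SciPy 1.17.1), and figures matplotlib 3.10.9. The fit was also run on simulated counts with a capped spread between libraries, so that run does not describe genes as variable as the 3 members. Members, gene lists and motifs were chosen with earlier results of these data known. Named were the members, the targeted gene, list genes called or with the smallest p by role and direction, 5 fixed regulators, genes most and least like each member over the lines, and genes within 100 kb. The regulators with the lowest and highest fitted values in DMSO were also named. The labels call the libraries replicates, and the lines were derived individually. DMSO and Senexin B libraries of the same number in a genotype deviated together (r of 0.572 or more for every pair), which pairs them as lines. No pair within a group was a copy (chi-square per gene of at least 43.5).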

Additional observations from a re-analysis of the deposited data

Results flagged for a closer look

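Within groups of 4 libraries, 7 of 36 gene and group combinations held a library set apart from the other 3 by more than Dixon's 95% limit for the gap to the nearest library over the group's range. For independent values with a normal spread, about 1 in 20 would pass that limit. These combinations share libraries and lines and use CPM without a log, so the count is not read as an excess. Among the V(D)J genes, Δ/Δ line 3 with DMSO was set apart for *Rag1* (77.8 CPM) and *Rag2* (39.4 CPM). Δ/Δ line 1 was set apart for *Dntt* with DMSO (282.3 CPM) and with Senexin B (51.7 CPM). For *Cdk8* the libraries were fl/fl line 1 (89.3 CPM) and Δ/Δ line 2 (61.6 CPM), both with Senexin B. For *Ebf1* it was fl/fl line 1 with DMSO (1263 CPM).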

How the results depend on the processing

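The 52 listed genes gave 0 calls in each of the 5 comparisons under every alternative run, the replicate block included. Few genes of any kind passed in these runs. The most was 45 of 12989 over all genes, for Senexin B in the fl/fl lines with the replicate block. Leaving out any single library gave 0 calls over all genes. The 0 for the listed genes is therefore not read as a trait of the list. The exact tests of *Rag1*, *Rag2* and *Dntt* kept their direction and their side of 0.05 under other pseudocounts and RLE size factors. Leaving out single lines moved the mean change with Senexin B of *Rag2* between 0.33 and 0.95 and of *Dntt* between 0.12 and 0.78, each with p = 0.0312 (exact) without Δ/Δ line 1, and the genotype difference in the change of *Rag1* between -1.09 and 0.24. Among fitted log2 fold changes, the replicate block turned *Dntt* in DMSO to -0.49. Across genotypes, libraries with equal numbers had r of -0.15 to 0.26 in DMSO and -0.1388 to 0.4236 with Senexin B. With Senexin B the block lowered the genotype SE from 1.094 to 0.322 for *Rag1* and from 0.978 to 0.289 for *Rag2*. For *Dntt* it raised the SE from 1.504 to 2.441. Whether lines with equal numbers share a factor across genotypes was not tested. Summing the DMSO and Senexin B libraries of each line gave *Dntt* 1 genotype value, 0.67, beside 2.52 with DMSO and -1.42 with Senexin B alone. Leaving out single libraries gave ranges that crossed 0 for *Dntt* in DMSO (-2.31 to 4.06), for Senexin B in the Δ/Δ lines (*Rag1* -0.14 to 1.77, *Rag2* -0.56 to 1.15, *Dntt* -4.32 to 2.63) and for the interaction (*Rag1* -1.56 to 0.35, *Dntt* -6.05 to 0.88). The libraries behind these reversals were Δ/Δ line 1 with DMSO for *Dntt* and Δ/Δ line 3 for *Rag1* and *Rag2*. *Rag2* rests on 2 to 47 reads per library in the fl/fl DMSO lines, which limits its folds there.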
